A study of Arabidopsis thaliana with 12 samples.

Results

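The 41 genes described here are the A-, B- and D-type cyclins, cyclin-dependent kinases (CDKs), Aurora kinases, CDC20 proteins, the cytokinesis syntaxin KNOLLE, E2F transcription factors and CDK inhibitors of *Arabidopsis thaliana*, chosen by gene identifier from the 27371 genes of the expression tables. By the phase in which their products act, 24 were placed in G2/M, 13 in G1/S and 4 among the inhibitors. *CDKA;1*, which acts through the whole cycle, was counted in G1/S. Their mRNA was measured by RNA-seq in whole 14-day-old seedlings of wild type (WT, Col-0) and of *linc1-1*, a T-DNA insertion line in *LINC1* in the same background. The seedlings were grown on sugar-free plates at 23 °C in long days. They were either mock treated (the control of the labels) or sprayed for 24 h with *Pst hrcC*-, a strain of *Pseudomonas syringae* pv. *tomato* DC3000 that lacks a functional type III secretion system, at an OD600 of 0.002. Each of the 4 groups had 3 libraries, described by the study as biological replicates. A single *linc1* allele was sequenced, so a difference between the lines cannot be told apart from any other difference that the 2 seed stocks may carry.

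In plants, as in other eukaryotes, the cell cycle is driven by CDKs that are switched on by cyclins. D-type cyclins with A-type CDKs release E2F transcription factors from the retinoblastoma protein and let cells enter S phase. A-type and B-type cyclins with the plant-specific CDKB kinases then bring cells through G2 and mitosis, CDC20 activates the ubiquitin ligase that destroys the mitotic cyclins, and KNOLLE fuses the vesicles that build the new cell wall. Inhibitors of the KRP and SIAMESE families hold CDKs in check, and in leaves and sepals they favour endoreduplication, in which DNA is copied without division. In a seedling most cells no longer divide, so transcripts of G2/M genes come from meristems, young leaves and the stomatal lineage. In whole seedlings, fewer dividing cells and less RNA per dividing cell cannot be told apart.

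Many G2/M genes of plants carry the MSA element (M-specific activator), which is bound by MYB3R factors, and many G1/S genes carry an E2F site. The core of the MSA element, AACGG on either strand, and the E2F sites TTTCCCGC and TTTGGCGC on either strand were searched in the 250 bases before the annotated start of each gene in TAIR10.1 (RefSeq). The core was present in 12 of the 24 G2/M genes (50%), in 3 of the 13 G1/S genes (23.1%), in 2 of the 4 inhibitors and in 20.6% of 27443 protein-coding genes. At least 2 copies stood before 8 of the 24 G2/M genes (33.3%) and before 3.62% of all genes. An E2F site was found before *CYCD3;3* alone among the 41 genes, and before 0.958% of all genes. These counts are matches of letters and not binding sites. The 5 windows shown are those of a pair of B-type cyclins with 4 and 3 copies, of *KRP2*, an inhibitor with 2 copies, and of *CDC20.2* and a D-type cyclin, which had none. Each is written 5′ to 3′ on the strand of its gene, with every AACGG and its reverse complement CCGTT in capitals.
CYCB1;2, chr5:1861704-1861953, minus strand: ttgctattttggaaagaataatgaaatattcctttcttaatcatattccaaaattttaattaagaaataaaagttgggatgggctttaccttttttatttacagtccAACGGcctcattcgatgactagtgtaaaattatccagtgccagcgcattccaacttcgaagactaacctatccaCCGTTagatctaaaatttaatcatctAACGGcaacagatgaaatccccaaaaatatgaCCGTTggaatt
CYCB1;1, chr4:17624309-17624558, minus strand: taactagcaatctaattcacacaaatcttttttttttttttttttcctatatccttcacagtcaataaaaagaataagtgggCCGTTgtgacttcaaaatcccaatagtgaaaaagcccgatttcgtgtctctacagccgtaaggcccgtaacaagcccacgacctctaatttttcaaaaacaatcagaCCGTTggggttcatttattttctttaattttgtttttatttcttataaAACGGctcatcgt
KRP2, chr3:18800056-18800305, plus strand: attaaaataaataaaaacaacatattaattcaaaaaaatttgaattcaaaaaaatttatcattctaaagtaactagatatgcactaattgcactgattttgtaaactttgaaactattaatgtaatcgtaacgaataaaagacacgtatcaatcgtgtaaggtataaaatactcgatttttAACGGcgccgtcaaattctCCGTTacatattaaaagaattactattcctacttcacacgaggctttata
CDC20.2, chr4:16043550-16043799, minus strand: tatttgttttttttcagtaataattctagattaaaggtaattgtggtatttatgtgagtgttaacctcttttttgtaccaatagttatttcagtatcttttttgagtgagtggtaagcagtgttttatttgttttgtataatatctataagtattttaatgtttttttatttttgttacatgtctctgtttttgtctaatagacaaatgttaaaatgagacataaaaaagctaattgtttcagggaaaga
CYCD3;2, chr5:26835889-26836138, plus strand: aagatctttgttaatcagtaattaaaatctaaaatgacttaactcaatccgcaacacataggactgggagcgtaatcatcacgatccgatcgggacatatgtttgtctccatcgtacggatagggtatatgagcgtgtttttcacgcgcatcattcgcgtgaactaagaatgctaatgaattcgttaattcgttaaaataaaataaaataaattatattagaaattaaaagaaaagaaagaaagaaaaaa

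The copies in the first of these windows began at −143, −69, −43 and −11, counted in bases from the start of the gene, and those in the second at −168, −61 and −13. The plot of motif positions shows 3 copies before each of 3 CYCB2 genes as well. *KRP1* had 6 copies, the most of the 41 genes. Of the genes with the largest differences between the lines, given further on, *KNOLLE* had 1 copy, at −12, and both CDC20 genes had none in this window.

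**Figure D1:**
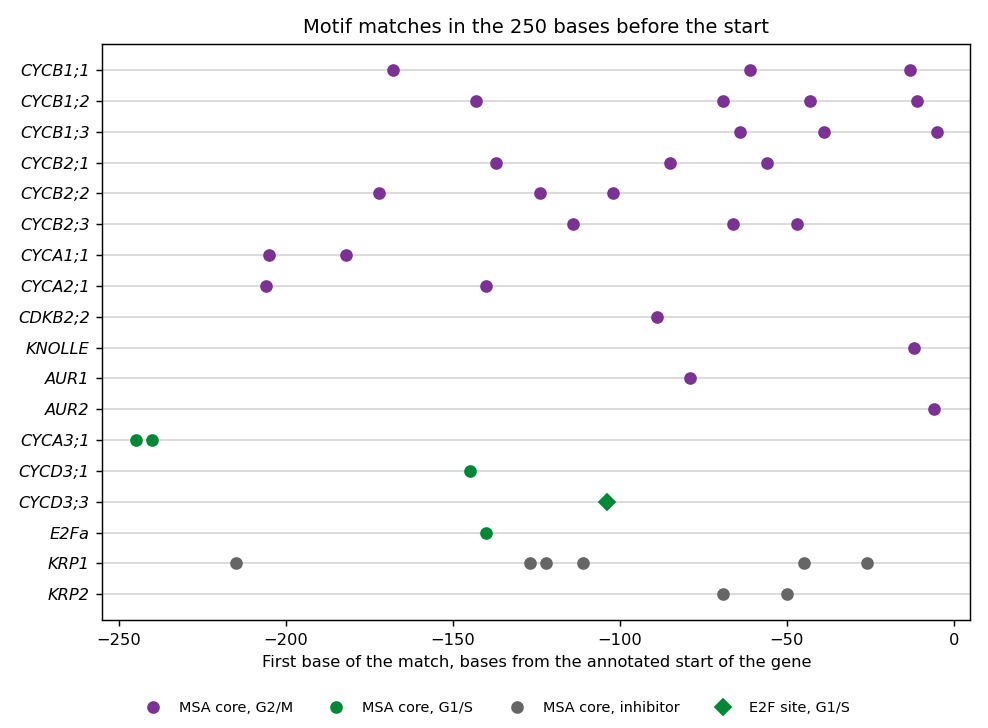
Positions of the MSA core (circles) and of the E2F site (diamond) in the 250 bases before the annotated start, for the 18 of 41 genes with a match. The x axis gives the first base of the match in bases from the start and the colours give the phase. The 6 B-type cyclins shown carry 3 or 4 copies each, and *KRP1* carries 6.

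Levels are given as FPKM, the fragments of a gene divided by its length and by the mapped fragments of the library, so that they can be compared between genes. *LINC1* (AT1G67230) was listed at 17.2 to 28.3 FPKM in WT and at 2.09 to 3.76 FPKM in *linc1-1*, as the labels say. Of the 41 genes, 28 averaged 1 FPKM or more across the libraries and were tested, 16 of 24 in G2/M, 8 of 13 in G1/S and 4 of 4 inhibitors, among 16677 tested genes. The depth of the libraries is unknown, the sums of FPKM ran from 9.05e+05 to 7.04e+06, and replicates of a group correlated with r of 0.818 to 0.944. Both WT libraries numbered 1, mock and *Pst hrcC*-, stood apart from the other 4 WT libraries. On the first principal component of all tested genes they lay at −49.0 and −27.8, beside the *linc1-1* libraries (−39.5 to −4.98) and away from the other WT libraries (41.8 to 59.0). In the *Pst hrcC*- treated WT library numbered 1 the clock gene *CCA1* was at 18.6 FPKM and *TOC1* at 5.74 FPKM. In the WT mock library numbered 1 they were at 2.07 and 32.3 FPKM, a smaller shift in the same direction. Every other library had at most 0.827 FPKM of *CCA1* and at least 56.5 FPKM of *TOC1*. Results that rest on the WT libraries numbered 1 are therefore given with and without them. They were set apart partly for their likeness to *linc1-1*, so leaving them out favours a larger difference between the lines. Genes called higher in *linc1-1* after *Pst hrcC*- rose from 29 to 1898 of 16677 without them. Calls made without them are therefore no separate support for a difference.

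The G2/M transcripts varied widely within WT and little within *linc1-1*. The summed level of the 24 G2/M genes was 157, 59.0 and 52.4 FPKM in the 3 WT mock libraries and 73.9, 34.7 and 53.8 FPKM in the 3 WT *Pst hrcC*- libraries. In *linc1-1* it was 115, 112 and 151 FPKM after mock treatment and 113, 117 and 131 FPKM after *Pst hrcC*-. The WT mock library numbered 1 was thus the highest of all 12, and the other 5 WT libraries were all below the 6 *linc1-1* libraries. The 13 G1/S genes summed to 59.7 to 90.7 FPKM in WT and 76.4 to 103 FPKM in *linc1-1*, and the 4 inhibitors to 58.7 to 87.1 FPKM and 56.1 to 83.0 FPKM, so for these the lines overlapped. The plot of median levels by phase, with every gene given equal weight, shows the same separation for G2/M. The order within WT differed. The *Pst hrcC*- library numbered 1 was above the one numbered 3 by sum but below it by median (1.17 against 1.48). The sums lean on abundant genes such as *KNOLLE*, at 57.3 of the 157 FPKM in the WT mock library numbered 1.

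**Figure D2:**
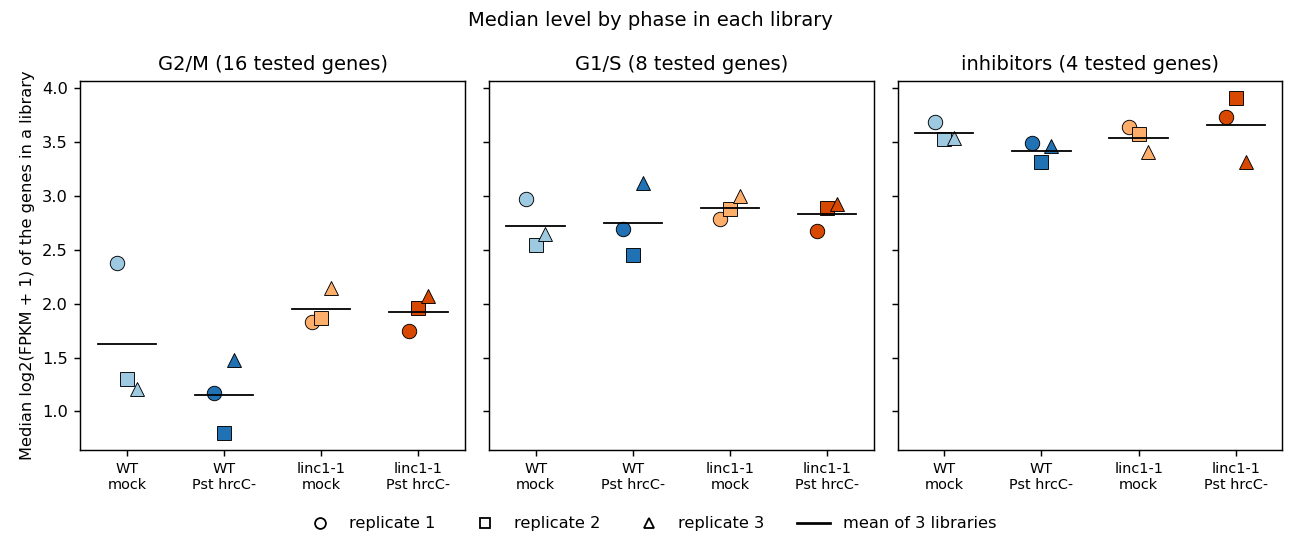
Median of log2(FPKM + 1) over the tested genes of each phase in each library, with the mean of the 3 libraries of a group as a line. For G2/M the *linc1-1* libraries lie between 1.74 and 2.14, the WT mock library numbered 1 at 2.38 and the other WT libraries between 0.80 and 1.48, whereas for G1/S and the inhibitors the groups overlap.

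The first question was whether the lines differed after treatment with *Pst hrcC*-. All 16 tested G2/M genes were higher in *linc1-1* in the mean, with a median log2 difference of 0.85 (range 0.04 to 1.44), where the median over all 16677 genes was 0.14. G2/M genes tended to move together from library to library, so counts of them are not counts of independent observations. Their median in a library had a pooled SD of 0.39 within groups. Of the 8 G1/S genes, 5 were higher (median 0.20), and of the 4 inhibitors, 3 were (median 0.14). A gene was called if it differed more than 1.5-fold with an adjusted p below 0.05 in limma, and no member was, where 0.432% of all genes were in either direction. With the same minimum fold and an unadjusted p in place of the adjusted one, 12 of the 28 were higher and none lower, 10 of them in G2/M, against 6.61% of all genes higher. Without a minimum on expression, the 3 *linc1-1* libraries lay above the 3 WT libraries in 15 of the 24 G2/M genes, 3 of the 13 G1/S genes and 1 of the 4 inhibitors, where 12.8% of 24967 genes listed above 0 did so. When the libraries were rescaled by size factors, the median over all genes moved from 0.14 to 0.01 and that of the G2/M genes from 0.85 to 0.77. *AUR3* was then lower in *linc1-1*, by 0.04, and the other 15 G2/M genes were higher. Quantile normalization lowered the G2/M median further, to 0.64, with 15 of 16 genes higher and a median over all genes of 0.01. When both WT libraries numbered 1 were left out, 12 members were called higher, 10 in G2/M with 1 A-type cyclin of G1/S and *KRP2*, where 11.4% of all genes were called higher.

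In mock-treated seedlings the difference depended on the WT library numbered 1. With all libraries, 13 of the 16 G2/M genes were higher in *linc1-1*, with a median of 0.21 (all genes 0.01). No member was called, where 0.036% of all genes were, and *CDC20.2* alone was higher by unadjusted p, where 1.8% of genes were. Compared with the mean of the WT mock libraries numbered 2 and 3, the *linc1-1* mean was higher in 14 of 16 G2/M genes by a median of 0.64. Compared with the WT mock library numbered 1, it was higher in 1 of 16, with a median of −0.33. The latter library exceeded the mean of the other WT mock libraries in 16 of 16 G2/M genes, by a median of 1.12, and in 8 of 8 G1/S genes, by a median of 0.52 (all genes 0.14). Without both WT libraries numbered 1, 8 members were called higher in mock-treated *linc1-1*, 6 in G2/M with the same A-type cyclin and *KRP2*, where 6.03% of all genes were. Complete separation of the lines after mock treatment was seen for 1 member above WT, *LGO*, where 5.5% of genes were so separated, and for 2 members below WT, *CYCA2;4* and *CYCD1;1*, where 7.58% were.

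**Figure D3:**
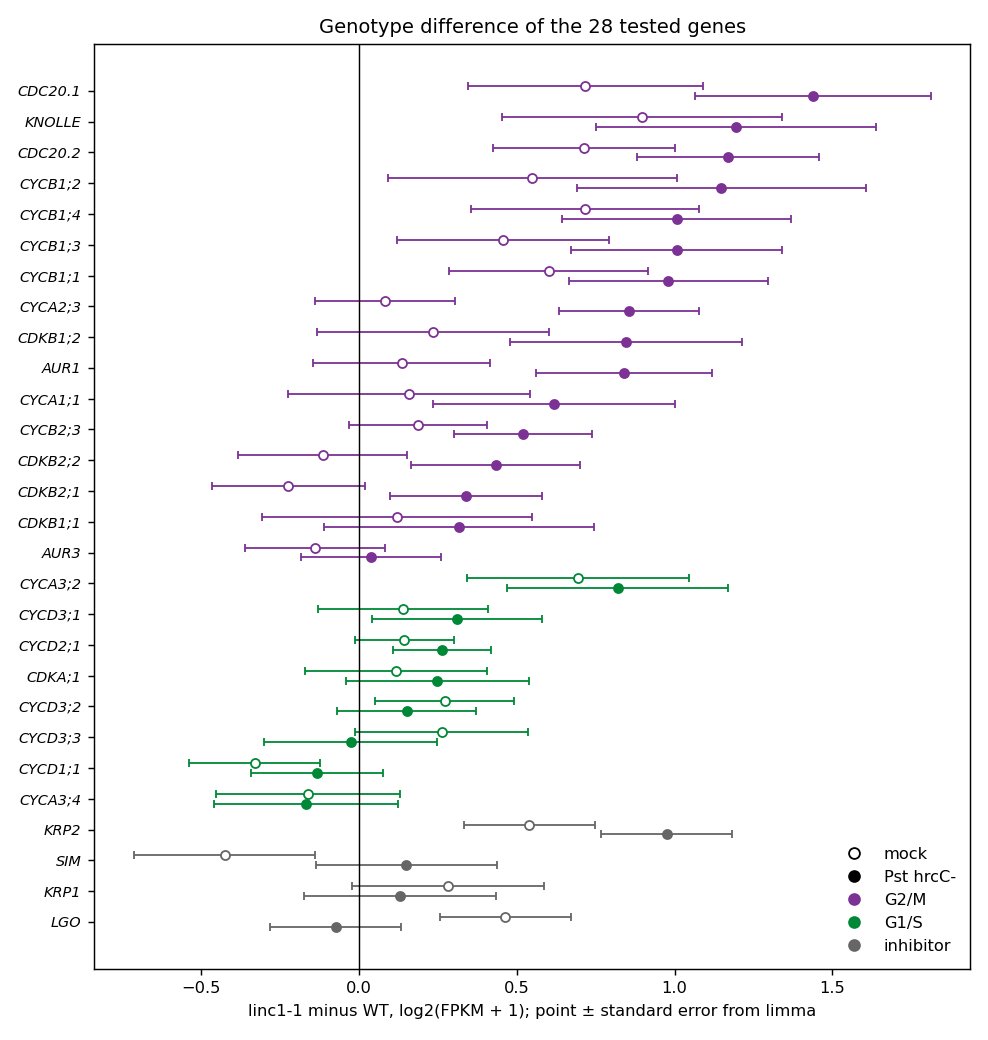
Difference between *linc1-1* and WT on the log2(FPKM + 1) scale for the 28 tested genes, with its standard error from limma, after mock treatment (open) and *Pst hrcC*- (filled). The G2/M genes reach 1.44 for *CDC20.1* after *Pst hrcC*-, when the D-type cyclins lie between −0.13 and 0.31.

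Averaged over both treatments, 2 members were called higher in *linc1-1*, *CDC20.2* and *KRP2*, where 0.845% of all genes were. By unadjusted p, 9 of the 28 were higher, 7 in G2/M, where 4.13% of all genes were. Of the 16 G2/M genes 15 were higher, with a median of 0.51 (all genes 0.08). Without both WT libraries numbered 1 there were 12 called members, 10 of them in G2/M, where 12.3% of all genes were called higher. The count was 11 without the WT mock library numbered 1, where 4.64% of all genes were called higher, and 7 without the WT *Pst hrcC*- library numbered 1, where 4.08% were. It fell to 0 when any one of the other 10 libraries was left out. The share of all genes called in those 10 fits is not given, so this fall is not a result about the members. With libraries weighted by their fit to the model, 9 members were called higher after mock treatment, 11 after *Pst hrcC*- and 12 over both treatments, where 6.73%, 5.32% and 10.2% of all genes were. Such weights count libraries that lie far from their group for less, and both WT libraries numbered 1 stood apart from the other WT libraries. The weighted counts are therefore no separate support either.

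Among the B-type cyclins, which accumulate from G2 to metaphase and activate the mitotic CDKs, *CYCB1;2* (AT5G06150, chromosome 5 from 1859279 to 1861703) had the highest mean level and the largest difference. It was at 11.6, 3.16 and 2.38 FPKM in WT mock and at 4.95, 1.71 and 1.64 FPKM in WT *Pst hrcC*- libraries. Its level in *linc1-1* was 5.72, 6.53 and 9.97 FPKM after mock treatment and 6.10, 7.20 and 6.98 FPKM after *Pst hrcC*-. The first library of each WT group was the highest of its 3, and after *Pst hrcC*- the lines did not overlap. The group means after *Pst hrcC*- were 6.76 ± 0.583 in *linc1-1* and 2.77 ± 1.89 FPKM in WT (SD, n = 3), a log2 difference of 1.15 (SE 0.46, adjusted p = 0.264 in limma). After mock treatment the log2 difference was 0.55 (SE 0.46, adjusted p = 0.832 in limma). *CYCB1;1* (AT4G37490), a common reporter of cells in G2/M, was at 0.191 to 0.937 FPKM in WT and at 1.38 to 2.75 FPKM in *linc1-1* after *Pst hrcC*-. The other 2 CYCB1 genes were separated in the same way, each with a log2 difference of 1.01. Of the CYCB2 genes, *CYCB2;3* was tested (0.52, SE 0.22), and *CYCB2;2* and *CYCB2;4* did not overlap but had means under 1 FPKM. *CYCB2;1* and *CYCB3;1* overlapped between the lines in both treatments.

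Among the A-type cyclins, *CYCA2;3* (AT1G15570, chromosome 1 from 5361865 to 5365559), which with CDKB1 limits the onset of endoreduplication, had the largest difference after *Pst hrcC*-. It was at 2.36, 1.20 and 1.12 FPKM in WT mock and 0.612, 0.946 and 1.18 FPKM in WT *Pst hrcC*- libraries, against 1.29, 1.67 and 2.05 FPKM and 1.80, 2.69 and 2.92 FPKM in *linc1-1*. The lines overlapped after mock treatment and did not after *Pst hrcC*-, when the log2 difference was 0.86 (SE 0.22, adjusted p = 0.122 in limma) against 0.08 (SE 0.22) after mock treatment. *CYCA3;2* (AT1G47210, chromosome 1 from 17300691 to 17302914), of a subfamily expressed from G1/S, was the most abundant A-type cyclin. It was at 6.27, 2.70 and 2.37 FPKM in WT mock and 4.84, 1.28 and 3.69 FPKM in WT *Pst hrcC*- libraries. The *linc1-1* libraries were at 5.38, 6.16 and 7.39 FPKM after mock treatment and 5.65, 6.43 and 5.97 FPKM after *Pst hrcC*-, so the treatments overlapped in this line. Its log2 difference between the lines was 0.82 (SE 0.35, adjusted p = 0.289 in limma) after *Pst hrcC*-, larger than that of any other G1/S gene tested. *CYCA1;1* did not overlap after *Pst hrcC*- (log2 difference 0.62, SE 0.38), while *CYCA3;4* was at −0.17 (SE 0.29). *CYCA2;4*, with a mean of 0.931 FPKM and not tested, went the other way, with 1.23 to 1.33 FPKM in WT and 0.451 to 1.03 FPKM in *linc1-1* after mock treatment.

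Of the CDKs, the B-type kinases are made in late S phase to mitosis, whereas the A-type kinase acts through the whole cycle. *CDKB1;2* (AT2G38620, chromosome 2 from 16152473 to 16154086) was at 4.04, 1.03 and 1.05 FPKM in WT mock, 1.296, 0.666 and 0.768 FPKM in WT *Pst hrcC*-, 1.41, 1.98 and 3.73 FPKM in *linc1-1* mock and 1.69, 2.33 and 3.38 FPKM in *linc1-1* *Pst hrcC*- libraries. After *Pst hrcC*- the lines were apart, by 0.85 on the log2 scale (SE 0.37, adjusted p = 0.295 in limma). This gene overlaps AT2G38630 on the other strand by 281 bp. *CDKB2;1* (AT1G76540, chromosome 1 from 28720328 to 28722550), the most abundant CDK of the 5, was at 7.04, 4.11 and 3.17 FPKM in WT mock and 2.37, 2.28 and 3.06 FPKM in WT *Pst hrcC*- libraries. In *linc1-1* it was at 3.09, 3.28 and 5.15 FPKM and at 3.05, 3.61 and 3.86 FPKM. Here the WT groups were the ones that did not overlap, while *linc1-1* overlapped with each of them. *CDKA;1* (AT3G48750) was at 1.92 to 6.34 FPKM over the 12 libraries, with a log2 difference of 0.25 (SE 0.29) after *Pst hrcC*-.

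Genes of anaphase and cytokinesis had the 3 largest log2 differences after *Pst hrcC*- among the 28 tested. *KNOLLE* (AT1G08560, chromosome 1 from 2709525 to 2711000) was at 57.3, 19.2 and 16.7 FPKM in WT mock and 32.8, 11.9 and 16.9 FPKM in WT *Pst hrcC*- libraries. The *linc1-1* values were 50.1, 43.2 and 58.5 FPKM after mock treatment and 45.3, 38.6 and 49.8 FPKM after *Pst hrcC*-. Only the WT library numbered 1 reached the *linc1-1* range, and only after mock treatment. The log2 difference was 1.19 (SE 0.44, adjusted p = 0.236 in limma) after *Pst hrcC*-, and 1.58 (SE 0.19, adjusted p = 0.00176) without both WT libraries numbered 1. Leaving those libraries out favours a larger difference, as stated above. *KNOLLE* overlaps AT1G08550 on the other strand by 464 bp. That gene was at 32.9 to 40.1 FPKM in WT mock, 16.5 to 42.7 FPKM in WT *Pst hrcC*-, 40.1 to 54.3 FPKM in *linc1-1* mock and 38.2 to 44.4 FPKM in *linc1-1* *Pst hrcC*- libraries, with a log2 difference of 0.61 (SE 0.29) after *Pst hrcC*-. The sources used here do not say whether strand was used for FPKM, and a part of AT1G08550 reads in the *KNOLLE* values was not tested.

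*CDC20.1* and *CDC20.2* encode activators of the anaphase-promoting complex and lie next to each other on chromosome 4, from 16044169 to 16046937 and from 16041006 to 16043549. *CDC20.1* (AT4G33270) was at 23.2, 8.37 and 8.01 FPKM in WT mock and 11.3, 4.75 and 6.55 FPKM in WT *Pst hrcC*- libraries, against 17.2, 18.7 and 24.3 FPKM and 20.5, 21.3 and 21.1 FPKM in *linc1-1*. *CDC20.2* (AT4G33260) was at 13.8, 6.73 and 5.97 FPKM in WT mock, 8.13, 4.24 and 5.36 FPKM in WT *Pst hrcC*-, 11.9, 14.4 and 16.7 FPKM in *linc1-1* mock and 13.3, 13.8 and 15.4 FPKM in *linc1-1* *Pst hrcC*- libraries. For both genes the *linc1-1* libraries were above all WT libraries but the mock library numbered 1. After *Pst hrcC*- the log2 differences were 1.44 (SE 0.37, adjusted p = 0.122 in limma) and 1.17 (SE 0.29, adjusted p = 0.109 in limma). Averaged over treatments, *CDC20.2* rose by 0.94 in *linc1-1* (SE 0.20, adjusted p = 0.0401 in limma), with adjusted p-values from 0.000247 to 0.106 over 19 alternatives. Leaving out any one of the 10 libraries other than the WT libraries numbered 1 ended this call, with adjusted p-values of 0.0721 to 0.106. The call of *CDC20.2* also ended when no minimum level was set (adjusted p = 0.0632 in limma). *CDC20.1* was at 1.08 (SE 0.26, adjusted p = 0.0580 in limma). Their coding sequences are 95.3% identical, so reads may have been split between them, and the values of each are uncertain.

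**Figure D4:**
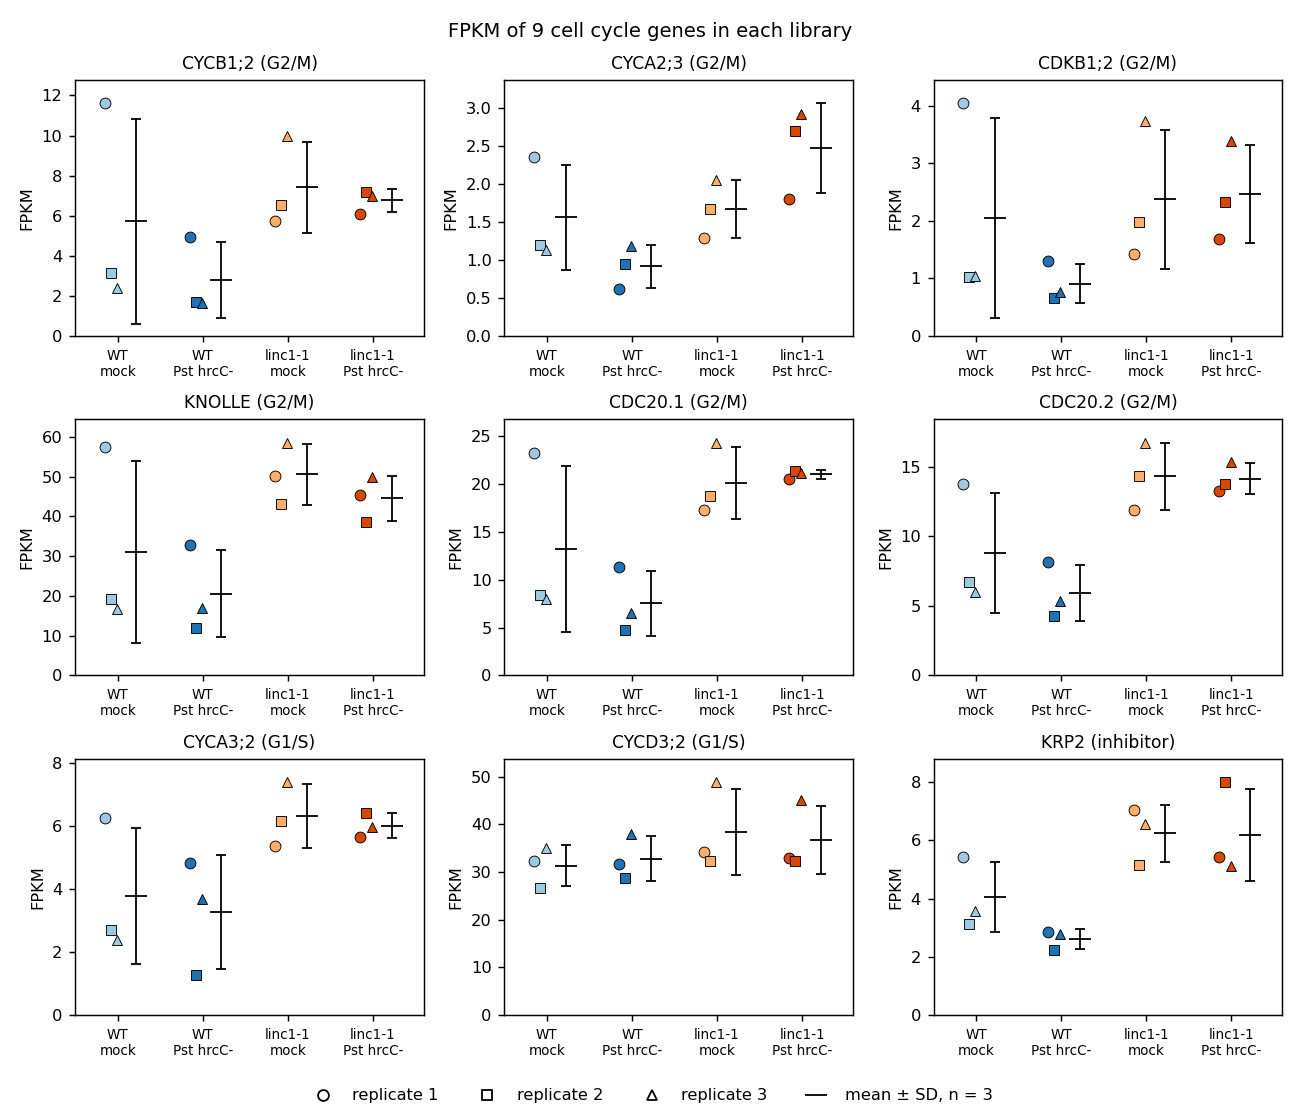
FPKM of 9 of the 41 genes in each library (symbols by replicate number) with the mean and SD of the 3 libraries of a group. In 8 of the 9 genes the *linc1-1* libraries treated with *Pst hrcC*- lie above the treated WT libraries, where 12.8% of 24967 genes did so. Most of the 9 were picked for a large difference in this same comparison or for a call. This count is therefore not a result about the members and cannot be set against the share of all genes. In the D-type cyclin the groups overlap. *CDKB2;1*, *CYCD3;1* and *LGO*, also given in full in the text, overlap in this comparison and are not shown.

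The Aurora kinases act on chromosome alignment and the plane of division, and all 3 were low. *AUR1* (AT4G32830) was at 0.538 to 2.40 FPKM in WT mock, 0.133 to 0.471 FPKM in WT *Pst hrcC*- and 0.992 to 1.73 FPKM in *linc1-1* *Pst hrcC*- libraries, and *AUR2* was separated between the lines likewise below a mean of 1 FPKM. *AUR1*, *AUR2* and *AUR3* overlap genes of the other strand by 290, 877 and 126 bp. The gene that overlaps *AUR2*, AT2G25890, averaged 0.854 FPKM, against 0.680 FPKM for *AUR2*. *AUR3* was at 0.556 to 1.68 FPKM over all libraries, with a log2 difference of 0.04 (SE 0.22) after *Pst hrcC*-, the smallest of the 16 G2/M genes.

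The D-type cyclins, which respond to sugar and hormones at entry into the cycle, included the most abundant cyclin, and the median log2 difference between the lines after *Pst hrcC*- was 0.15 over the 5 tested. *CYCD3;2* (AT5G67260, chromosome 5 from 26836139 to 26839597) was at 32.2, 26.6 and 35.0 FPKM in WT mock and 31.7, 28.7 and 37.9 FPKM in WT *Pst hrcC*- libraries. The *linc1-1* libraries were at 34.1, 32.3 and 48.8 FPKM after mock treatment and 32.8, 32.2 and 45.0 FPKM after *Pst hrcC*-. The groups overlapped, and the log2 difference after *Pst hrcC*- was 0.15 (SE 0.22, adjusted p = 0.754 in limma). *CYCD3;1* (AT4G34160), with the largest difference of this class, was at 17.6, 8.56 and 10.9 FPKM in WT mock, 12.5, 9.29 and 13.5 FPKM in WT *Pst hrcC*-, 10.3, 12.7 and 17.3 FPKM in *linc1-1* mock and 13.8, 13.2 and 17.3 FPKM in *linc1-1* *Pst hrcC*- libraries. Its log2 difference after *Pst hrcC*- was 0.31 (SE 0.27, adjusted p = 0.571 in limma), within the spread of the libraries. The other tested D-type cyclins, *CYCD1;1*, *CYCD2;1* and *CYCD3;3*, were at −0.13, 0.26 and −0.03 after *Pst hrcC*-. *CYCD1;1* was lower in every *linc1-1* mock library (4.43 to 4.86 FPKM) than in WT mock (5.47 to 7.16 FPKM), with a log2 difference of −0.33 (SE 0.21). It overlaps AT1G70209, a gene of the other strand listed at 1140 FPKM in the WT mock library numbered 1 and at 0 in the other 11, by 144 bp.

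The E2F factors were low, with means of 0.754 FPKM for *E2Fa*, 0.521 FPKM for *E2Fb* and 0.879 FPKM for *E2Fc*, and none was tested. *E2Fb* was at 0.279 to 0.510 FPKM in WT and 0.521 to 0.675 FPKM in *linc1-1* after *Pst hrcC*-, and *E2Fc* was separated likewise, while *E2Fa* overlapped. Over the 13 members below the minimum, 11 were higher in *linc1-1* after *Pst hrcC*- and 7 after mock treatment when fitted without a minimum, with medians of 0.28 and 0.04 on the log2(FPKM + 1) scale, which compresses low values. *CYCA2;1* was listed at 0 in 2 libraries, and no other member was at 0 in any library.

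Among the inhibitors, *KRP2* (AT3G50630, chromosome 3 from 18800306 to 18801595), which binds CDKs and slows entry into the cycle, had the largest difference between the lines. It was at 5.41, 3.13 and 3.59 FPKM in WT mock and 2.85, 2.22 and 2.77 FPKM in WT *Pst hrcC*- libraries, and at 7.04, 5.16 and 6.57 FPKM and 5.45, 8.01 and 5.12 FPKM in *linc1-1*. The lines were apart after *Pst hrcC*-, and after mock treatment only the WT library numbered 1 reached into the *linc1-1* range. Averaged over treatments *KRP2* rose by 0.76 on the log2 scale in *linc1-1* (SE 0.15, adjusted p = 0.0286 in limma), with adjusted p-values from 0.00127 to 0.0820 over 19 alternatives. Leaving out any one of the 10 libraries other than the WT libraries numbered 1 ended this call, with adjusted p-values of 0.0510 to 0.0820. After *Pst hrcC*- alone its log2 difference was 0.97 (SE 0.21, adjusted p = 0.0743 in limma), the smallest adjusted p of the 28 genes in that comparison.

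The SIAMESE-type inhibitors, which promote endoreduplication, showed another order. *LGO* (AT3G10525, chromosome 3 from 3281306 to 3282131), known for the giant cells of sepals, was at 34.2, 36.0 and 30.2 FPKM in WT mock and 53.1, 35.5 and 38.6 FPKM in WT *Pst hrcC*- libraries. In *linc1-1* it was at 48.3, 47.7 and 43.5 FPKM after mock treatment and 44.2, 45.0 and 31.3 FPKM after *Pst hrcC*-. The lines were thus apart after mock treatment (log2 difference 0.46, SE 0.21, adjusted p = 0.622 in limma) and overlapped after *Pst hrcC*- (−0.07, SE 0.21). *LGO* and *SIM* each overlap a gene of the other strand, by 375 and 338 bp. *SIM* (AT5G04470) was at 13.9 to 28.6 FPKM and *KRP1* (AT2G23430) at 2.81 to 7.40 FPKM over the 12 libraries, with overlap between the lines in both treatments.

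A second question was how *Pst hrcC*- changed these genes within a line. In WT, all 16 G2/M genes were lower after treatment, with a median log2 change of −0.48 (all genes −0.09), and no member was called, where 0.18% of genes were. *CDKB2;1* (−0.65, SE 0.24, adjusted p = 0.831 in limma) and *AUR1* (−0.67, SE 0.28, adjusted p = 0.927) were lower by unadjusted p, where 1.1% of genes were. The treated WT libraries were below all WT mock libraries in 3 of 24 G2/M genes, *CDKB2;1*, *CYCB2;4* and *AUR1*, and in *KRP2*, where 5.13% of all genes were. Without both WT libraries numbered 1 the median of the G2/M genes was −0.22. It was −0.12 without the WT mock library numbered 1 alone, −0.71 without the WT mock library numbered 3, and between these values without any other single library. In *linc1-1* the G2/M genes had a median change of −0.01 (all genes 0.02), 7 of 16 were higher, and no member passed at an adjusted p (0.606% of genes did) or at an unadjusted p (3.16%). No member of any phase was separated between the 2 *linc1-1* groups, where 3.54% of genes were separated downwards and 6.63% upwards. Over both lines, no member passed at an adjusted p (1.07% of genes) or an unadjusted p (3.01%).

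The difference between the responses of the lines was tested directly. It was above 0 in all 16 G2/M genes, with a median of 0.50 (all genes 0.12), and no member nor any other gene was called (0%). By unadjusted p, *CYCA2;3* alone passed (0.77, SE 0.31, adjusted p = 1.00 in limma), where 1.38% of genes did. With both WT libraries numbered 1 left out the median was 0.20, and 15 of 16 were above 0. Without single libraries it was 0.13 to 0.66, with 0.13 when the WT mock library numbered 1 was left out and 0.30 when the WT *Pst hrcC*- library numbered 2 was. The comparisons of one line with the other and of treated with untreated seedlings share libraries, so their directions are not independent of each other.

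**Figure D5:**
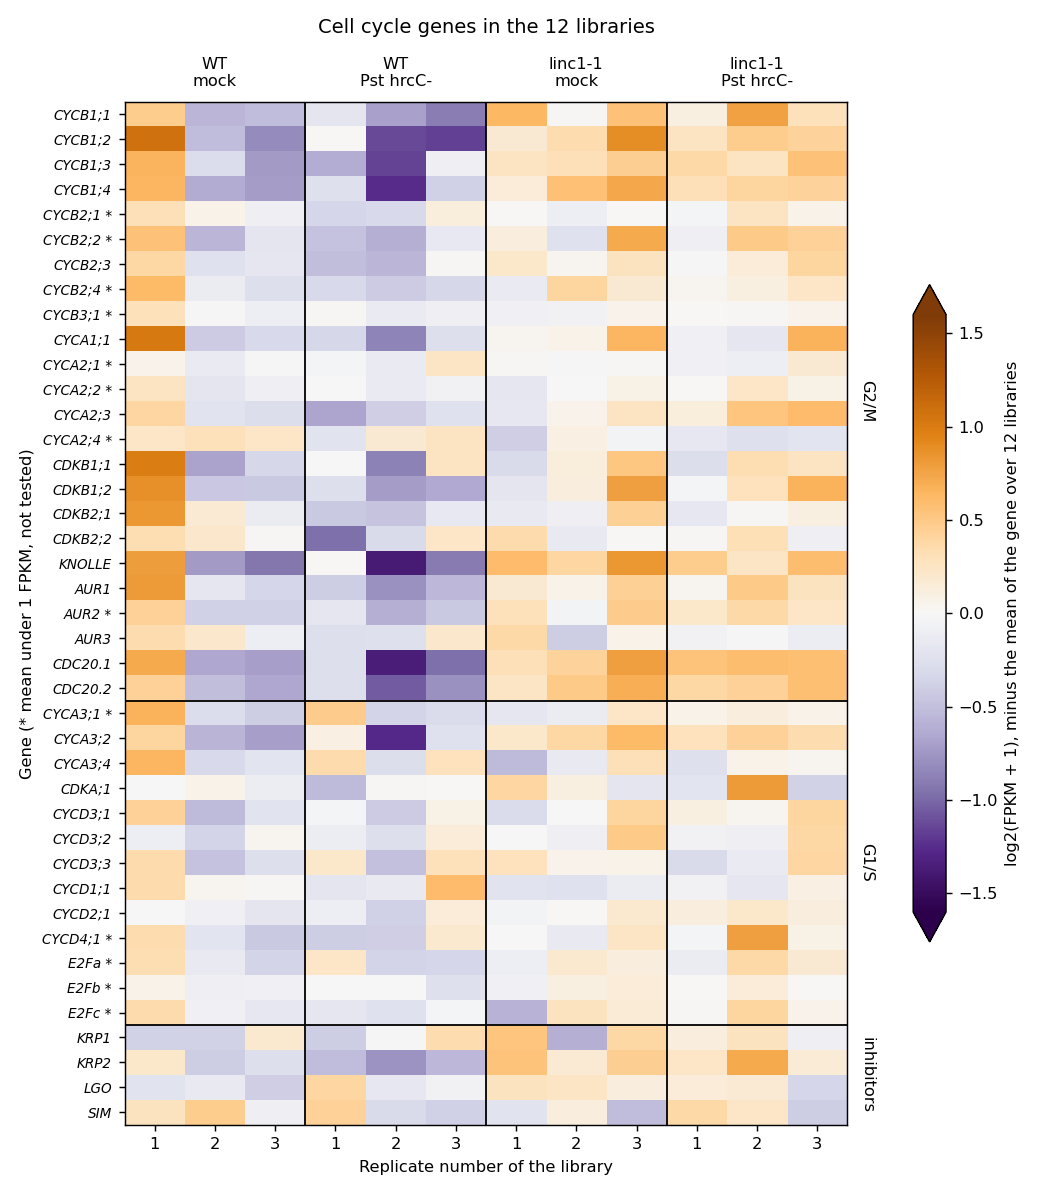
Level of all 41 genes in the 12 libraries as log2(FPKM + 1) minus the mean of the gene, with lines between the groups and between G2/M, G1/S and the inhibitors. The WT mock library numbered 1 and the *linc1-1* libraries are high for most G2/M genes, the other WT libraries are low, and the D-type cyclins show little contrast.

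Of 39 further genes of the cell cycle, such as other cyclins and inhibitors, MYB3R factors, and spindle and phragmoplast proteins, 24 were tested. After *Pst hrcC*-, 21 of them were higher in *linc1-1*, with a median of 0.42 (all genes 0.14). Of these, 7 were higher by unadjusted p, where 6.61% of all genes were, and none was called in limma, where 0.432% were. The largest differences were those of *MAD2* (AT3G25980) of the spindle checkpoint, the kinesin *HINKEL* (AT1G18370) of cytokinesis and *TPX2* (AT1G03780) of spindle assembly. *MAD2* was at 0.551 to 1.49 FPKM in WT and 2.99 to 4.85 FPKM in *linc1-1* after *Pst hrcC*- (log2 difference 1.16, SE 0.38, adjusted p = 0.194 in limma). *HINKEL* and *TPX2* had differences of 1.00 and 0.87, and for all 3 genes the WT mock library numbered 1 was the highest of the WT libraries.

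Markers of tissues were measured beside these genes. The summed level of 8 genes of the stomatal lineage, of which none was at 0 throughout, was 34.7, 17.8 and 18.7 FPKM in WT mock and 19.1 to 23.9 FPKM in WT *Pst hrcC*- libraries, and 24.5 to 35.4 FPKM in *linc1-1*. Here too the WT mock library numbered 1 was within the *linc1-1* range and the other 5 WT libraries were below it. After *Pst hrcC*-, all 6 tested genes of this list were higher in *linc1-1*, with a median of 0.37 (range 0.01 to 0.46, all genes 0.14). None was higher by unadjusted p, where 6.61% of all genes were. *FAMA* was then at 0.792, 4.73 and 6.99 FPKM in WT and at 2.58, 4.11 and 3.58 FPKM in *linc1-1*. The 7 genes of the shoot meristem and primordia summed to 18.0 to 31.0 FPKM in WT and 24.0 to 35.1 FPKM in *linc1-1*, and the 10 root genes to 105 to 223 FPKM and 80.8 to 235 FPKM. Each of these sums rests mostly on a single gene, *CLV1* (mean 18.9 FPKM) for the shoot and *PYK10* (mean 148 FPKM) for the root. Only 3 of the 7 and 4 of the 10 averaged 1 FPKM or more, so the sums say little about these tissues. The 12 photosynthesis genes were at 59094 and 56867 FPKM in the WT libraries numbered 1, 27332 to 41168 FPKM in the other WT libraries and 30982 to 58953 FPKM in *linc1-1*. One of them, *LHCB1.3* (AT1G29930), was listed at 0 in 2 *linc1-1* libraries, mock numbered 3 and *Pst hrcC*- numbered 1, and at 14917 to 25755 FPKM in the other 10. Without this gene, left out after its values were seen, the sums were 39813 and 38825 FPKM in the WT libraries numbered 1, 12415 to 17912 FPKM in the other WT libraries and 24994 to 35598 FPKM in *linc1-1*, so that the *linc1-1* libraries lay above those 4 WT libraries and below the WT libraries numbered 1. The part of tissue makeup in the differences of the G2/M genes was not tested.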

How the data were processed

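RNA-seq libraries of mRNA from whole seedlings were sequenced in pairs by the authors, 3 for each of 4 groups. The submitters' processing notes name TAIR10, FastQC, TopHat2 2.1.1 and Cufflinks 2.2.1. The deposited values are FPKM, in 1 table per line, without counts or depth. FPKM divides by transcript length and library total, so one gene of very high level lowers all others. Whole reads could not be recovered: 29.5% to 40.5% of low values of 6328 genes lay within 0.15 of a whole multiple of the floor, where 30% would by chance, and precision rests on the 3 libraries of a group.

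The 16677 genes averaging 1 FPKM or more were analysed as log2(FPKM + 1) in limma 3.58.1 (R 4.3.3). One model held all 4 groups, with a variance trend and Benjamini-Hochberg adjustment over these genes. Calls needed both an adjusted p below 0.05 and more than a 1.5-fold difference. Fold changes are on the log2(FPKM + 1) scale and understate those of low genes. The test was tested on simulated data. Alternatives were a pseudocount of 0.1, no minimum, size factors, quantile normalization, the compared groups alone, library weights, a replicate block, unadjusted p-values, and leaving out each library or both WT libraries numbered 1. Same-numbered libraries deviated together (r above 0.1) in 4 of 18 pairs, so numbers were not used as pairs.

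Members and lists were chosen with earlier results of these data known. Values in every library are given for called members, for the most abundant member and for the one with the largest difference between lines after *Pst hrcC*- in each class, and other genes by range. The *LINC1* and clock values and the 3 further cell cycle genes with the largest difference were added. The tables hold no coordinates. Positions and sequences are from RefSeq TAIR10.1, in which 26703 of 27371 identifiers (97.6%) and all 41 members were found.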

Additional observations from a re-analysis of the deposited data

How the results depend on the processing

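No member reversed a call under any alternative. Without both WT libraries numbered 1, a choice that favours calls, the number of called members was 8 after mock treatment, 12 after *Pst hrcC*- and 12 over both treatments. Of the other cell cycle genes 6, 10 and 9 were called, where 6.03%, 11.4% and 12.3% of all genes were called higher. With library weights it was 9, 11 and 12, where 6.73%, 5.32% and 10.2% of all genes were called higher, with 8, 9 and 8 of the other genes. Weights count libraries far from their group for less, so these counts are no separate support. Without a minimum level 1 member, *KRP2*, was called over both treatments and *CDC20.2* no longer was, a count with no share of all genes beside it. Counting by unadjusted p gave 2 members for the WT response, 1 for the lines after mock treatment, 12 after *Pst hrcC*-, 9 over both treatments and 1 for the difference between responses. Leaving out one library at a time gave 0 to 4 members after *Pst hrcC*- and 0 to 11 over both treatments, with 0 to 2 and 0 to 7 of the other genes. Over both treatments the share of all genes called higher was 0.845% with all libraries. It was 4.64% without the WT mock library numbered 1 and 4.08% without the WT *Pst hrcC*- library numbered 1. Shares for the other leave-outs are not given, so these counts are not a result about the members.

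The median of the G2/M members after mock treatment was 0.64 without both WT libraries numbered 1 and 0.045 to 0.645 without single libraries. With a pseudocount of 0.1 FPKM it was 1.32 after *Pst hrcC*- and 0.95 over both treatments. Quantile normalization gave smaller G2/M medians, 0.64 after *Pst hrcC*-, 0.385 over both treatments and 0.35 for the difference between responses. Without single libraries, the median difference between responses ran from 0.13 to 0.66 for the G2/M members, from −0.12 to 0.23 for the G1/S members and from −0.094 to 0.288 for the inhibitors. The cause of these shifts was not tested.

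A replicate block left the calls as they were, with 2 members called over both treatments and 0 in the other comparisons. Its pairing was not borne out in most cases, since 4 of 18 same-numbered pairs had r above 0.1. The highest r, 0.448, was that of the WT mock and WT *Pst hrcC*- libraries numbered 1, so these 2 deviated together. Depth is unknown, and members under 1 FPKM cannot be read firmly.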
